A study of Mus musculus with 6 samples.

Results

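A set of 10 genes of natural killer (NK) cells and cytotoxic lymphocytes was followed in brown adipose tissue (BAT) of lean and obese mice. They were *Gzma*, *Gzmb*, *Prf1*, *Nkg7*, *Ncr1*, *Klrb1c*, *Klrk1*, *Klrd1*, *Eomes* and *Tbx21*, and all 10 were found by symbol among the 47729 genes of the RSEM tables. They were selected on the measured difference between the diets in these same samples, so that difference is given here as a description, and no p-value is given for the 10 genes. The samples were 6 male wild-type C57BL/6J mice. Of these, 3 received a 45% high-fat diet (HFD) and 3 a standard rodent diet, labelled low-fat diet (LFD), for 4 weeks from 6 to 10 weeks of age. The mice were housed singly, and the mice sequenced were picked to span the fat mass of their diet group, from the least to the greatest, although the labels do not say which replicate number is which. Total RNA of the interscapular depot was sequenced after removal of ribosomal RNA, as single reads of 75 bases.

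NK cells are innate lymphocytes that kill stressed, infected or transformed cells without prior sensitisation. They store perforin and granzymes in secretory granules, and the contents are released onto a target cell once signals from activating receptors outweigh those from inhibitory receptors, many of which bind MHC class I molecules. Cytotoxic CD8 T cells use the same granule proteins, and T-bet and Eomes, which *Tbx21* and *Eomes* encode, direct the effector programme of both cell types. In adipose tissue NK cells reside among macrophages and other leukocytes of the stroma.

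The 6 libraries held 17156991 to 21603487 rounded counts, of which 3.87% to 22.7% came from the mitochondrial genome. The label BAT was checked against brown adipocyte markers. *Ucp1*, the uncoupling protein of brown fat, was at 2728, 4021 and 796 TPM (transcript abundance scaled by gene length and library) in HFD mice and at 443, 11.0 and 76.0 TPM in LFD mice. This defining marker was thus lowest in the second LFD mouse and also low in the third, and every LFD mouse lay below every HFD mouse. In TPM this held for 2 of the 10 brown adipocyte markers, *Ucp1* and *Prdm16*, and for 1.65% of all genes tested. The log2 fold change of HFD over LFD was above 0 in 7 of the 10. It was below 0 for *Adipoq* (-1.19 ± 0.76, edgeR estimate ± SE), *Plin1* (-0.78 ± 0.84) and *Fabp4* (-0.35 ± 0.76). Summed over 12 skeletal muscle markers, the level was 13.2 to 318 TPM in HFD mice and 1730 to 11300 TPM in LFD mice. The part of these differences in the values of the 10 genes was not tested, and the diet and the amount of muscle and brown fat in the dissected samples cannot be told apart. In bulk tissue, fewer cells of a type and less RNA per cell cannot be told apart.

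RefSeq promoters (build GRCm38.p6, 250 bases before to 50 after the start site) were available for 9 of the 10 genes, with *Klrd1* not used here. The 4 granule genes and *Ncr1* are shown, 5′ to 3′ on the strand of the gene, because they had the 5 largest log2 fold changes. Capitals mark matches, on either strand, to the letters TGTGGT (RUNX), GGTGTGA (T-box), TGANTCA (AP-1) and TTCNNNGAA (STAT).
Gzma, chr13:113100932-113101231: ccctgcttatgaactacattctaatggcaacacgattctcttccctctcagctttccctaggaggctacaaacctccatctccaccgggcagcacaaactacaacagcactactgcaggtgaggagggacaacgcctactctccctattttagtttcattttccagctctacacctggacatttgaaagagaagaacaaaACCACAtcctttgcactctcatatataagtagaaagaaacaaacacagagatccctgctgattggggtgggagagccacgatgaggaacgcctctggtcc
Gzmb, chr14:56262285-56262584: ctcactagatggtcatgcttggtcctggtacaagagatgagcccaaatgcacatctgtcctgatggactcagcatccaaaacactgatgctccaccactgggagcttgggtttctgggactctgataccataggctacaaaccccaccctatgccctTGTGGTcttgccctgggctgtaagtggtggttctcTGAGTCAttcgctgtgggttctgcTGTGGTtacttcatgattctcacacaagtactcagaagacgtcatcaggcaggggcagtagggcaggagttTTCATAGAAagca
Prf1, chr10:61297586-61297885: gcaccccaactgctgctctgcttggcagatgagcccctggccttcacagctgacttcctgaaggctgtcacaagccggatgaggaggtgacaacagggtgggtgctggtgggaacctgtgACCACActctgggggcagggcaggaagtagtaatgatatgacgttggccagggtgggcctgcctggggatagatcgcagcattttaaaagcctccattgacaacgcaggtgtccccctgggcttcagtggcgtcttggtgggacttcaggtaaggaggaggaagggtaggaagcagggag
Nkg7, chr7:43436888-43437187: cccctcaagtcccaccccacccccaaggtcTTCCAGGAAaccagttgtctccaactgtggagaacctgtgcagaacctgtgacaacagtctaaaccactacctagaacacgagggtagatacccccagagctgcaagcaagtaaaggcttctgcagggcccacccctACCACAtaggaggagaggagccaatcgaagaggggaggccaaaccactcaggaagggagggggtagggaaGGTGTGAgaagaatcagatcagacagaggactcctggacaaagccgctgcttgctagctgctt
Ncr1, chr7:4337465-4337764: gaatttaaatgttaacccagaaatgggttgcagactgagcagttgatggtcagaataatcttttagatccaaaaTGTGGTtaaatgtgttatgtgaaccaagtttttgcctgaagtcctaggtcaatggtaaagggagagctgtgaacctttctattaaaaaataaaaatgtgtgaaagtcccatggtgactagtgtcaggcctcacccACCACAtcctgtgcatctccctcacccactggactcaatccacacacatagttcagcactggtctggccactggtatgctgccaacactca
The RUNX letters stood in 7 of the 9 promoters, in each of the 5 shown and in those of *Klrb1c* and *Klrk1*, and in 16.8% of 32851 mouse promoters of the same length. *Gzmb* and *Ncr1* each held them at 2 places. The T-box letters were found in 1 of the 9, that of *Nkg7*, and in 3.98% of all promoters. AP-1 letters stood in the promoters of *Gzmb* and *Klrk1* (7.81% of all promoters) and STAT letters in those of *Gzmb* and *Nkg7* (8.3% of all promoters). The promoters of *Eomes* and *Tbx21* held none of the 4. These matches describe the letters only.

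*Gzma* had the highest mean level of the 10 genes in HFD mice, 12 ± 5.70 TPM (SD, n = 3). It was followed by *Nkg7* (7.20 ± 3.12), *Klrk1* (6.67 ± 2.95), *Klrd1* (6.65 ± 0.955) and *Gzmb* (6.28 ± 4.84), which lay within an SD of each other, then by *Ncr1*, *Klrb1c*, *Prf1*, *Tbx21* and *Eomes*. In LFD mice the highest mean was that of *Klrk1* (1.92 ± 1.44 TPM), followed by *Klrd1* (1.74 ± 1.67) and *Gzma* (1.57 ± 1.37), again closer to each other than their spread.

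*Gzma* (ENSMUSG00000023132, chr13:113093825-113100981, minus strand), which encodes granzyme A, a serine protease of cytotoxic granules, was at 5.51, 14.1 and 16.3 TPM in HFD mice and at 0.21, 2.95 and 1.56 TPM in LFD mice. The 2 diets did not overlap, and the lowest LFD value rested on 3 counts. *Gzma* was the only one of the 10 in which the deposited credibility interval of the lowest HFD mouse, 4.39 to 6.51 TPM, lay wholly above that of the highest LFD mouse, 1.98 to 3.93 TPM. Its log2 fold change was 3.23 ± 0.70 (edgeR estimate ± SE, n = 3 per diet).

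*Gzmb* (ENSMUSG00000015437, chr14:56258838-56262260, minus strand) encodes granzyme B, which cleaves caspases and their substrates in the target cell. It was at 1.32, 6.55 and 10.98 TPM in HFD mice and at 0.08, 0.75 and 0.44 TPM in LFD mice. This was the largest difference of the 10, with a log2 fold change of 4.08 ± 0.81, and also a wide spread within HFD (6.28 ± 4.84 TPM, mean ± SD, n = 3). *Gzmb* made up 19.3%, 31.7% and 40.3% of the summed *Gzma* and *Gzmb* TPM in the HFD mice and 27.6%, 20.3% and 22% in the LFD mice, so the balance of the 2 granzymes overlapped between the diets.

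*Prf1* (ENSMUSG00000037202, chr10:61297833-61304680, plus strand) encodes perforin, the pore-forming protein through which granzymes enter a cell. Its level was 0.55, 1.67 and 3.52 TPM in HFD mice and 0.03, 0.33 and 0.21 TPM in LFD mice, without overlap, and its log2 fold change was 3.55 ± 0.77. *Nkg7* (ENSMUSG00000004612, chr7:43437073-43438249, plus strand) encodes a membrane protein of cytotoxic granules. It was at 3.78, 7.91 and 9.90 TPM in HFD mice and at 0.21, 1.44 and 2.46 TPM in LFD mice, with a log2 fold change of 2.66 ± 0.56, the smallest of the 4 granule genes. Summed over the 4, the level ran from 11.2 to 40.7 TPM in HFD mice and from 0.53 to 5.47 TPM in LFD mice.

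**Figure D1:**
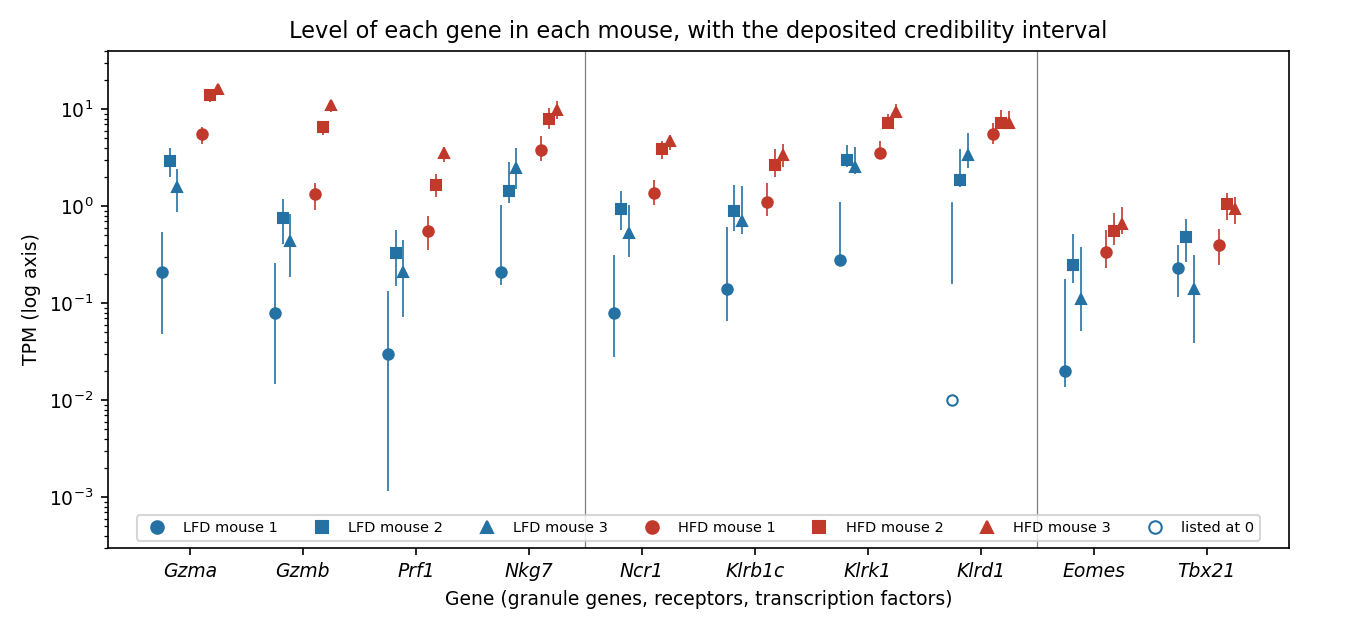
Level of each of the 10 genes in each mouse, in TPM on a log axis, with LFD mice in blue and HFD mice in red. Vertical lines are the credibility intervals of the deposited tables. In 9 genes every HFD mouse lies above every LFD mouse, in *Tbx21* the lowest HFD mouse (0.40 TPM) lies below the highest LFD mouse (0.48 TPM), and *Klrd1* is listed at 0 in 1 LFD mouse, drawn as an open circle at 0.01.

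Of the receptors, *Ncr1* (ENSMUSG00000062524, chr7:4337724-4345164, plus strand) encodes NKp46, an activating receptor that marks NK cells and related innate lymphocytes. It was at 1.38, 3.91 and 4.67 TPM in HFD mice and at 0.08, 0.93 and 0.53 TPM in LFD mice, and its log2 fold change of 2.97 ± 0.66 was the largest among the 4 receptors. *Klrk1* (ENSMUSG00000030149, chr6:129610323-129623864, minus strand) encodes NKG2D, the activating receptor for stress-induced ligands. It was at 3.52, 7.13 and 9.36 TPM in HFD mice and at 0.28, 2.96 and 2.52 TPM in LFD mice. The gap between the diets was narrow for *Klrk1*, and its log2 fold change was 2.01 ± 0.59.

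*Klrd1* (ENSMUSG00000030165, chr6:129591782-129598775, plus strand) encodes CD94, the partner chain of the NKG2 receptors. HFD mice were close together at 5.55, 7.26 and 7.14 TPM, whereas LFD mice were at 0, 1.88 and 3.34 TPM. In the LFD mouse listed at 0, the depth of the library allows up to 3 counts, or 0.143 CPM (counting error only). The deposited credibility interval in that mouse was 0.163 to 1.09 TPM, which leaves out the listed 0. Its log2 fold change was 2.62 ± 0.93, with the largest SE of the 10. *Klrb1c* (ENSMUSG00000030325, chr6:128778485-128789215, minus strand) encodes NK1.1, the surface antigen by which NK cells of this strain are commonly sorted. It was at 1.11, 2.66 and 3.38 TPM in HFD mice and at 0.14, 0.89 and 0.71 TPM in LFD mice, with a log2 fold change of 2.34 ± 0.64. *Klrb1c* is uncertain, because it overlaps another annotated gene and has near-identical relatives. The posterior SD of its count reached 2.73, and its effective length ran from 828 to 1814 bases between mice. The posterior SD of *Eomes* reached 0.42, and the other 8 of the 10 genes had one of 0. Effective lengths, which enter the TPM, also differed between mice for *Eomes* (2303 to 3487 bases), *Klrk1* (1626 to 2252), *Klrd1* (552 to 743) and *Nkg7* (544 to 808).

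The transcription factors had the lowest mean levels of the 10 genes in HFD mice. *Eomes* (ENSMUSG00000032446, chr9:118478212-118486132, plus strand), a T-box factor needed for NK cell maturation, was at 0.34, 0.55 and 0.66 TPM in HFD mice and at 0.02, 0.25 and 0.11 TPM in LFD mice. Its log2 fold change was 2.46 ± 0.69 and rested on 89 counts in HFD and 15 in LFD. *Tbx21* (ENSMUSG00000001444, chr11:97098071-97115331, minus strand), which encodes the T-box factor T-bet, was at 0.40, 1.04 and 0.93 TPM in HFD mice and at 0.23, 0.48 and 0.14 TPM in LFD mice. The diets overlapped in TPM but not on the log2 CPM scale, that is, library-scaled counts with TMM factors, and its log2 fold change of 1.58 ± 0.56 was the smallest of the 10.

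Across the 10 genes the log2 fold changes ran from 1.58 to 4.08 with a median of 2.64, beside a median of -0.05 over all 17668 genes tested. The median was 3.39 for the 4 granule genes, 2.48 for the 4 receptors and 2.02 for the 2 transcription factors. All 10 genes passed the filter on low counts, for which the 3 HFD mice were enough, since the lowest count of any of them in an HFD mouse was 21. On the log2 CPM scale every HFD mouse was above every LFD mouse in 10 of the 10 genes, where 6.72% of all genes tested showed this, and in TPM in 9 of the 10, where 1.65% did. The edgeR quasi-likelihood test (adjusted p under 0.01, absolute log2 fold change above 1.5) called 0 of the 10 genes and 0% of all genes higher in HFD, while 3.86% of all genes were higher at an unadjusted p under 0.05. DESeq2 with default settings called 6 of the 10, *Gzma*, *Gzmb*, *Prf1*, *Ncr1*, *Klrb1c* and *Nkg7*, and 0.531% of all genes with an adjusted p. Because the genes were chosen from this contrast, nothing is read from these counts.

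**Figure D2:**
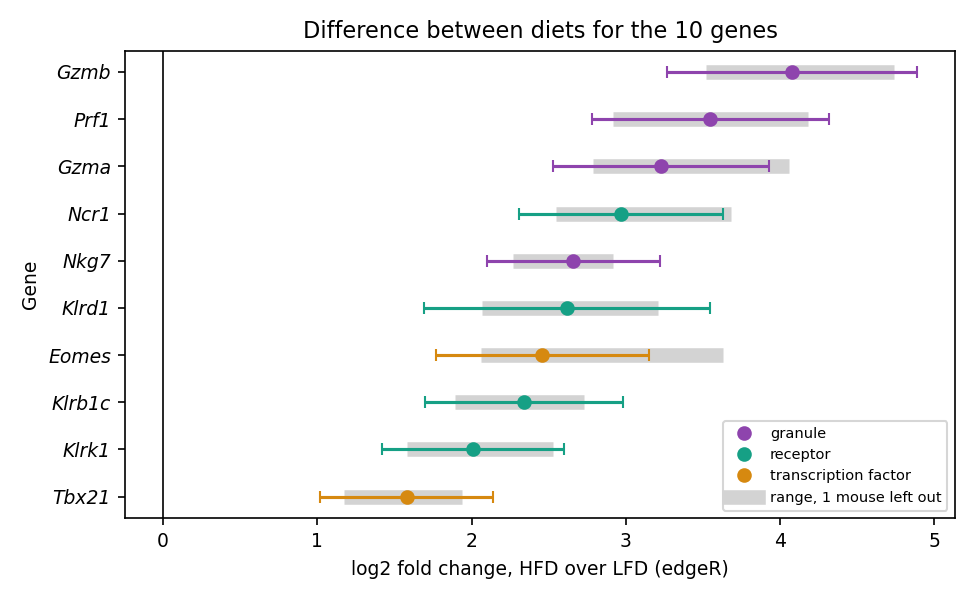
Log2 fold change of HFD over LFD for the 10 genes (points, edgeR estimate, with SE as bars), coloured by role. Grey bands span the estimates with each of the 6 mice left out in turn, from 3.52 to 4.74 for *Gzmb* and from 1.17 to 1.94 for *Tbx21*, and none reaches 0.

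Mice of the same diet also differed. The first HFD mouse had the lowest TPM of its diet in 10 of the 10 genes, and the first LFD mouse in 9 of the 10. The share of mitochondrial counts was highest in these same mice, at 22.7%, 16.5% and 8.5% in the HFD mice and at 13.8%, 9.12% and 3.87% in the LFD mice, and its part was not tested. Summed over the 10 genes, the counts were 542, 954 and 1347 in HFD mice and 35, 232 and 148 in LFD mice. The first LFD mouse carried very few of these reads, with 0 to 11 counts per gene and 8 of the 10 genes under 10 counts. Leaving it out lowered the median log2 fold change from 2.64 to 2.17, and leaving out the second LFD mouse raised it to 3.26. The log2 fold change of *Eomes* ran from 2.06 without the first LFD mouse to 3.63 without the second.

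The profile of each gene was compared with that of the others as the root mean square (RMS) difference between log2 CPM values centred on their mean over the 6 mice. *Ncr1* lay closest to the mean of the other 9 genes (0.14), followed by *Nkg7* (0.24) and *Klrb1c* (0.28). *Tbx21* lay farthest (1.09), followed by *Klrd1* (0.81) and *Gzmb* (0.71). The closest pair was *Klrb1c* and *Klrk1* (0.15) and the most distant *Klrd1* and *Tbx21* (1.63), with a median of 0.61 over the 45 pairs. *Tbx21* stood apart in the first LFD mouse, where it had 10 counts while *Eomes* had 1 and *Ncr1* had 2.

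Outside the 10 genes, the profile most like their mean was that of *Il2rb*, the beta chain of the IL-2 and IL-15 receptors, with an RMS difference of 0.13. Its level was 2.90, 5.93 and 9.09 TPM in HFD mice and 0.29, 1.81 and 1.12 TPM in LFD mice. Of 13592 candidate genes, whose median RMS difference was 1.58, the next were *Trbc2*, a T cell receptor constant region (0.24), *Slamf7*, a receptor of NK cells and other leukocytes (0.25), *Klra8*, the activating receptor Ly49H (0.25), and *Slamf8* (0.25). *Scimp* (0.29), *Tnip3* (0.30), *Fabp7* (0.31), *Lonrf3* (0.31) and *Rsad2* (0.35), an interferon-induced gene, completed the 10. This ranking was made over 6 mice that share the difference between diets.

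The level of the 10 genes was set against that of other leukocyte genes in the same mouse. *Ptprc*, which encodes CD45 of all leukocytes and was chosen after its values were seen, was at 45.7, 82.1 and 154 TPM in HFD mice and at 7.17, 59.2 and 62.6 TPM in LFD mice, with a log2 fold change of 1.42 ± 0.65 (edgeR adjusted p = 0.509). The mean log2 CPM of the 10 genes was 1.89 ± 0.44 in HFD mice and -0.85 ± 0.98 in LFD mice (SD, n = 3). After subtraction of *Ptprc* the means were -6.13 ± 0.29 and -7.20 ± 0.53, so the difference of 2.75 between the diets became 1.07, and the diets still did not overlap. Gene by gene, 7 of the 10 did not overlap after this subtraction, and *Klrk1*, *Eomes* and *Tbx21* did. Of all genes tested, 0.351% were above in every HFD mouse after it, and nothing is read from this count, since the 10 were chosen on this contrast. Relative to the mean of 10 T cell markers the difference was 1.56, and relative to the mean of 10 macrophage markers it was 2.03, again without overlap. The macrophage mean is a mixed one, since the log2 fold changes of its genes ran from -0.27 for *Mertk* to 2.06 for *Fcgr1*. The T cell mean included *Trac*, which had 222 counts in the first LFD mouse, where *Trbc1* had 0 and *Trbc2* had 1. The difference relative to T cell markers without *Trac* was not computed. The granule genes minus the receptors gave a difference of 0.55, in which the diets overlapped.

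**Figure D3:**
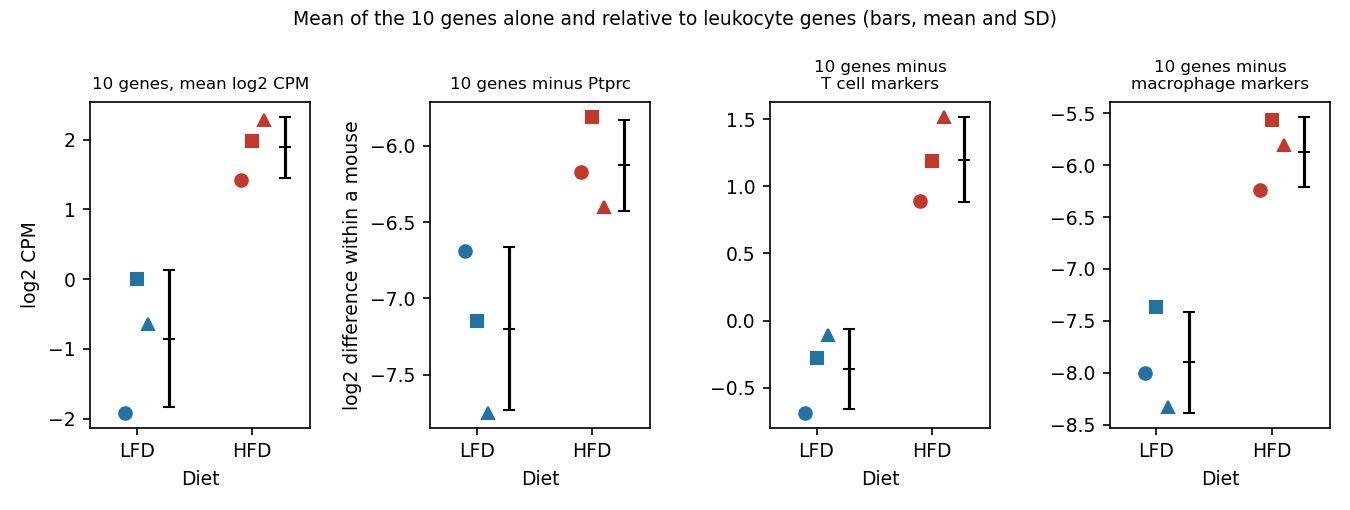
Mean log2 CPM of the 10 genes in each mouse (first panel) and the same minus *Ptprc*, the T cell markers or the macrophage markers of that mouse (log2 units), with mean and SD as bars. HFD mice lie above LFD mice in all 4 panels, by 2.75, 1.07, 1.56 and 2.03.

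Alongside them, 10 lists of genes of the same pathways were described, with 150 genes of which 146 were in the tables and 113 passed the filter on low counts. edgeR called 0 of the 113 higher and 0 lower, and the smallest edgeR adjusted p among them was 0.17. At an unadjusted edgeR p under 0.05, 41 were higher in HFD mice, where 3.86% of all genes were, and 0 lower. DESeq2 called 10 of the 127 with an adjusted p higher, where it called 0.531% of all genes, and 0 lower. On the log2 CPM scale every HFD mouse was above every LFD mouse in 50 of the 113 (44.2%, against 6.72% of all genes). In TPM this held for 18 of the 113 (15.9%, against 1.65% of all genes), and the reverse held for 0 on both scales. Some of the 113 passed the filter on low counts only through the HFD mice, which favours these counts. The lists were also chosen with earlier results of these data known, so nothing is read from these counts.

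Receptors of the NK gene complex had the highest median of the 10 lists, 2.78 over 12 genes tested, with a range from 1.02 for *Klrb1b* to 4.22 for *Klra7*. The diets did not overlap in 10 of the 12 on the log2 CPM scale (6.72% of all genes were so placed) and in 7 of the 12 in TPM (1.65% of all genes). Several of the 12 passed the filter on low counts only through the HFD mice, which favours such a gap. *Klra7*, for example, had 28, 29 and 49 counts in HFD mice and 0, 4 and 1 in LFD mice. Nothing is therefore read from these numbers of genes without overlap. *Klra7*, which encodes the inhibitory receptor Ly49G, was at 1.33, 1.83 and 2.88 TPM in HFD mice and at 0, 0.28 and 0.09 TPM in LFD mice. *Klrc1*, which encodes the inhibitory partner NKG2A of CD94, was at 1.75, 2.80 and 3.96 TPM in HFD mice and at 0, 0.34 and 0.97 TPM in LFD mice. DESeq2 called both, with *Klra1*, *Klra4* and *Klra9*, and the Ly49 genes are near-identical to each other, so reads could be split among them. *Klra2*, the most abundant of the list in the third HFD mouse, was at 1.56, 4.99 and 17.9 TPM in HFD mice and at 0.16, 1.64 and 2.43 TPM in LFD mice. Its log2 fold change was 2.77 ± 0.94, and that of *Klre1* was 2.88 ± 0.79. The diets overlapped in TPM for both genes, though not on the log2 CPM scale.

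Cytokine receptors had a median of 1.71 over 10 genes. *Il2rb* had a log2 fold change of 2.69 ± 0.57. *Il7r*, the receptor chain for the lymphocyte survival factor IL-7, was at 4.74, 13.99 and 17.7 TPM in HFD mice and at 0.09, 1.67 and 3.22 TPM in LFD mice, and had the highest log2 fold change of the list, 3.25 ± 0.87. DESeq2 called both. The diets overlapped for the common gamma chain *Il2rg* (log2 fold change of 1.33 ± 0.72), for *Il15ra* (0.01 ± 0.30) and for *Il2ra* (-0.14 ± 0.46). Among the cytokine ligands, with a median of 0.51 over 5 genes tested, *Il15*, which sustains NK cells, had a log2 fold change of 0.71 ± 0.31, *Ebi3* one of 1.38 ± 0.40, *Il18* one of 0.51 ± 0.60 and *Il7* one of -0.37 ± 0.39.

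Adaptors and signalling genes had a median of 1.28 over 14 genes, and DESeq2 called 1, *Lck*, the proximal kinase of lymphocyte receptors (2.00 ± 0.51). *Tyrobp*, which encodes the adaptor DAP12 and is also expressed by macrophages, was at 225, 328 and 553 TPM in HFD mice and at 39.9, 161 and 297 TPM in LFD mice. The diets overlapped in TPM for *Tyrobp*, *Fcer1g* (1.18 ± 0.52) and *Ptpn6* (1.55 ± 0.61), though not on the log2 CPM scale, whereas *Fyn* had a log2 fold change of -0.55 ± 0.46. Of the other NK cell receptors, with a median of 0.97 over 12 genes, DESeq2 called *Cd69*, an early activation antigen (3.52 ± 0.59), and *Slamf7* (2.56 ± 0.57). *Cd2* was at 1.20 ± 0.43, the Fc receptor *Fcgr3* at 0.61 ± 0.42 and the checkpoint receptor *Lag3* at -0.59 ± 0.80 on the log2 fold change scale.

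The lymphocyte transcription factors other than *Eomes* and *Tbx21* had a median of 1.10 over 12 genes. *Stat4*, which transmits IL-12 signals, had the highest log2 fold change of this list (1.48 ± 0.54). The diets overlapped in TPM for *Id2* (1.09 ± 0.32) and *Irf8* (1.11 ± 0.48), though not on the log2 CPM scale, and on both scales for *Ets1* (0.89 ± 0.33) and *Zeb2* (-0.04 ± 0.30). Homing receptors and integrins had a median of 1.08 over 13 genes. *S1pr5*, which guides NK cell egress, was at 1.17, 3.35 and 1.07 TPM in HFD mice and at 0.56, 0.06 and 0.28 TPM in LFD mice, and had a log2 fold change of 2.56 ± 0.93. The chemokine receptor *Ccr2* (1.14 ± 0.68), *Itgam* (1.08 ± 0.60), *S1pr1* (0.65 ± 0.30) and *Itga2* (0.17 ± 0.54) had lower values.

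On the side of the target cell, ligands of NK receptors had a median of 0.54 over 14 genes, which was 1.06 without the third LFD mouse. The MHC class I genes *H2-K1* and *H2-D1* and their light chain *B2m* had log2 fold changes of 0.23 ± 0.37, 0.04 ± 0.37 and 0.23 ± 0.41, and *Clec2d*, a ligand of an inhibitory receptor, one of 0.11 ± 0.27. *Pvrl2*, an adhesion ligand, had the highest of this list, 1.58 ± 0.40. Granzyme inhibitors and targets had a median of 0.29 over 11 genes, with *Serpinb6b* highest at 2.08 ± 0.86 and *Serpinb6a* lowest at -0.31 ± 0.39. *Casp8*, the initiator caspase of death receptors, was at 0.29 ± 0.33 and *Cflar*, its inhibitor, at 0.29 ± 0.25.

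Granule and death ligand genes outside the 10 had a median of only 0.46 over 10 genes tested of 20. None of the other granzymes of this list passed the filter on low counts. Among them *Gzmm*, which encodes granzyme M, was at 0.61 ± 0.369 TPM in HFD mice and 0.613 ± 0.193 TPM in LFD mice (SD, n = 3). Several are general lysosomal genes, such as *Lamp1* (0.26 ± 0.30) and *Ctsc* (0.37 ± 0.42), which encodes the protease that activates granzymes. *Ctsw*, a cathepsin of cytotoxic lymphocytes, had the highest value, 1.84 ± 0.52, and was at 1.5, 2.81 and 3.88 TPM in HFD mice and at 0.24, 1.49 and 1.08 TPM in LFD mice. *Srgn*, the proteoglycan of granule cores, was at 1.04 ± 0.41, *Stxbp2* at 0.43 ± 0.22 and *Rab27a* at 0.00 ± 0.48, both of the latter acting in granule release.

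**Figure D4:**
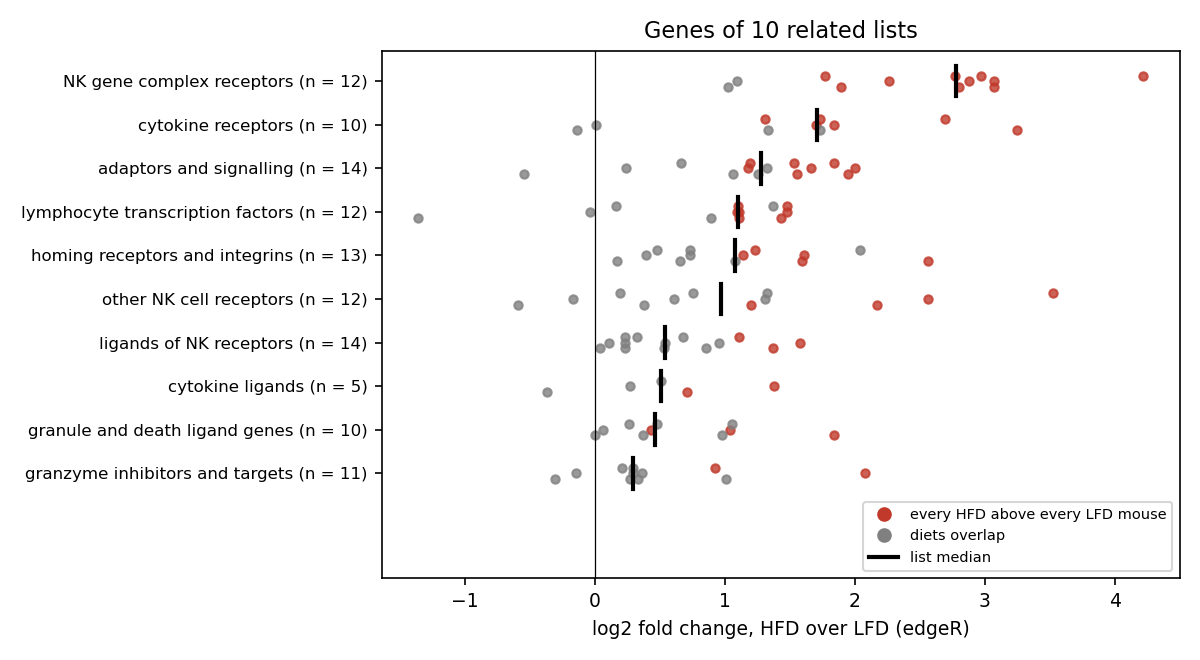
Log2 fold change of HFD over LFD (edgeR) for each tested gene of 10 lists, with the list median as a black bar. Red points are genes in which every HFD mouse lay above every LFD mouse on the log2 CPM scale (50 of 113), and medians run from 0.29 for granzyme inhibitors and targets to 2.78 for receptors of the NK gene complex.

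*Klrb1c*, *Klrd1* and *Klrk1* lie in the NK gene complex, taken here, with its values known, as the 42 protein-coding genes from *Klrb1a* to *Klra1* (chr6:128609227-130386874, GRCm38). Of its 23 *Klr* genes, 14 were tested, 3 of the 10 genes included. The other 11 also belong to the list of NK gene complex receptors above, so their values are the same and no further result. The log2 fold changes of the 14 ran from 1.02 to 4.22 with a median of 2.48. Leaving aside those 3, which were chosen on this difference, the diets did not overlap in 9 of the other 11 on the log2 CPM scale (against 6.72% of all genes) and in 7 in TPM (against 1.65%). As stated above for *Klra7*, several of these passed the filter on low counts only through the HFD mice, so nothing is read from these counts. The 11 tested genes of other families in the same span had a median of 1.03 and a range from 0.10 to 3.52, and the diets did not overlap in 5 of the 11 on the log2 CPM scale and in 3 in TPM. *Gabarapl1*, an autophagy gene next to *Klre1*, had a log2 fold change of 0.10 ± 0.43, against 2.88 ± 0.79 for *Klre1*.

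**Figure D5:**
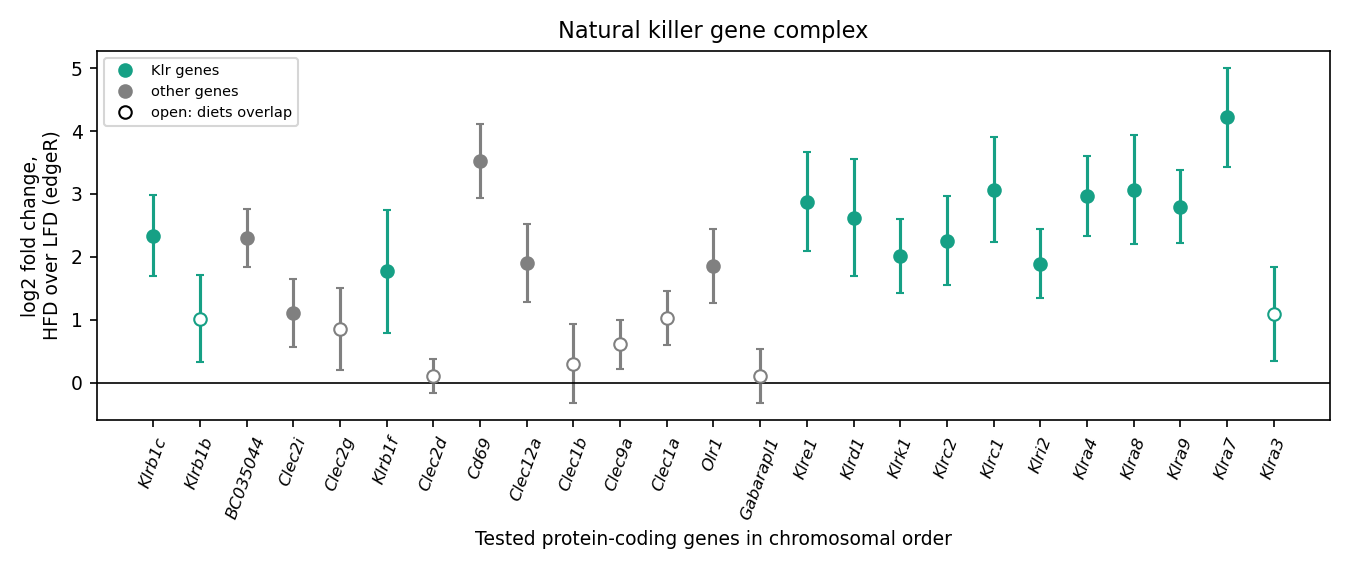
Log2 fold change of HFD over LFD (edgeR estimate ± SE) of the tested protein-coding genes of the NK gene complex in chromosomal order, with *Klr* genes in green and others in grey. Open symbols are genes in which the diets overlapped on the log2 CPM scale. *Clec2d* and *Gabarapl1* lie near 0 (0.11 and 0.10) beside *Klr* genes of up to 4.22.

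Markers of other cell types were measured in the same mice, and their part in the values above was not tested. edgeR called 0 of the 68 markers tested. At an unadjusted edgeR p under 0.05, 8 were higher, where 3.86% of all genes were, and 13 were lower. DESeq2 called 1 higher, *Trbc2*, where it called 0.531% of all genes. It called 11 lower, 10 of them skeletal muscle markers and the other *Cxcl13*, beside 306 lower genes among the 19965 with an adjusted p. The shares of all genes that were lower at an unadjusted p, or below in every HFD mouse, are not given here. T cell markers had a median log2 fold change of 0.91 over 10 tested of 12. On the log2 CPM scale every HFD mouse was above every LFD mouse in 5 of these 10 (6.72% of all genes). Some of them passed the filter on low counts only through the HFD mice. The summed level of the T cell markers was 13.1 to 25.6 TPM in HFD mice and 11.3 to 22 TPM in LFD mice. The highest LFD sum was that of the first LFD mouse, where *Trac* alone was at 20.8 TPM, and without *Trac* the sums were 11.1, 19.7 and 23.8 TPM in HFD mice and 1.15, 13.2 and 10.6 TPM in LFD mice. B cell markers had a median of 0.36 over 6 of 7, with 2.69 to 6.61 TPM against 1.00 to 5.62 TPM. Macrophage markers had a median of 0.32 over 10 of 10, with 1960 to 3990 TPM against 623 to 4510 TPM. They were mixed, with log2 fold changes from -0.27 for *Mertk* to 2.06 for *Fcgr1*. In 3 of the 10, *Fcgr1*, *Cd68* (1.72 ± 0.63) and *Adgre1* (1.36 ± 0.55), the diets did not overlap on the log2 CPM scale (6.72% of all genes). In TPM this held for 0 of the 10. Neutrophil markers had a median of 0.43 over 5 of 6 and dendritic cell markers one of 0.67 over 7 of 7. Mast cell and basophil markers had a median of -0.98 over 5 of 8, and markers of lymph node stroma one of -1.33 over 3 of 5, with 2.11 to 18.9 TPM against 10.6 to 90.0 TPM. The 12 skeletal muscle markers had a median of -6.20, and in 11 of them every HFD mouse lay below every LFD mouse, while the 10 brown adipocyte markers had a median of 1.35. None of the markers was at 0 in every mouse.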

How the data were processed

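Total RNA of BAT was sequenced in 6 mice, 3 per diet, grouped by the sample labels. The authors trimmed reads with Trimmomatic 0.36 and quantified genes with RSEM 1.3.0 against GRCm38.p4 and Ensembl release 84. The deposited tables hold expected counts per gene, TPM, posterior SDs and effective lengths. The deposited credibility bounds of TPM are treated as a signal-like quantity, and their level is not given in the sources used here. Expected counts were here rounded and fitted without covariates by the edgeR 4.0.16 quasi-likelihood test (R 4.3.3, TMM, filterByExpr, Benjamini-Hochberg over 17668 genes), with DESeq2 1.42.0 as an alternative. The calling thresholds were 0.01 for the adjusted p and 1.5 for the size of the log2 fold change, as in the study. Log2 CPM used a prior count of 2. The fits were tested on simulated data. Depth was 17156991 to 21603487 counts per library, and the bound of 3 counts for a value listed at 0 covers counting error only. The deposited credibility bounds belong to single libraries and do not cover the spread between mice.

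The 10 genes and all gene lists were chosen with earlier results of these data known. All 10 are named. Of each list the text names genes called by a test, up to 4 with the highest mean TPM, and those with the largest and smallest log2 fold change, except for a few that are not reported here. Of all other genes with a mean TPM of at least 0.5 and a symbol that neither starts with Gm nor ends in Rik, it names the 10 nearest in profile. *Ptprc*, *Gabarapl1*, *Gzmm* and the span on chromosome 6 were chosen after their values were seen. Positions are from GENCODE M21 (GRCm38) and promoters from RefSeq. Same-numbered mice of the 2 diets, as numbered in the labels, deviated together (r = 0.498, 0.229 and 0.522 over genes), so the numbers were also fitted as a replicate block. No 2 libraries of the same diet agreed within sampling noise. Replicates were separate mice per the study methods.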

Additional observations from a re-analysis of the deposited data

How the results depend on the processing

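Under the alternatives (other normalization, other filters, DESeq2, the replicate block, without mitochondrial and ribosomal RNA genes, each mouse left out, TPM), the 141 values of single genes were all above 0, from 0.43 to 4.74, and 131 of them moved by less than 1 SD between mice. Of 149 list medians, 144 did so and 0 changed sign. The median log2 fold change of the 10 genes was 2.17 to 3.26 with each mouse left out, 1.47 as a difference of log2(TPM + 1), whose pseudocount shrinks low genes, and 1.12 after subtraction of *Ptprc*, an alternative chosen after seeing the data. With the replicate block, which pairs same-numbered mice, it was 2.82, and edgeR called 0 genes, as without the block. At an adjusted p under 0.05 with no fold change threshold, where edgeR otherwise called 0 genes, the replicate block gave 29 higher and 155 lower genes, *Slamf7* and *Cd69* of the lists among the higher, and leaving out the third LFD mouse gave 27 higher and 195 lower. These looser counts were chosen after seeing the data. DESeq2 called 106 genes higher and 306 lower, where edgeR called 0 and 0, and the cause was not tested. With at least 10 counts required in every mouse, only *Klrk1* remained tested, so the number of the 10 genes without overlap became 1. TPM alternatives give no test, so no calls were made from them. Few counts lie behind the LFD values, with 35 over the 10 genes in the first LFD mouse.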

Other observations

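The T cell receptor constant regions differed in the sign of their log2 fold change. *Trbc1* and *Trbc2* were higher in every HFD than every LFD mouse on the log2 CPM scale, with log2 fold changes of 2.56 ± 0.88 and 2.74 ± 0.66 (edgeR adjusted p = 0.383 and 0.215). *Trac* had one of -2.11 ± 1.18 (edgeR adjusted p = 0.614), and was at 1.93, 3.03 and 1.80 TPM in HFD mice and at 20.8, 4.27 and 0.68 TPM in LFD mice. The high *Trac* value was in the first LFD mouse, in which *Trbc1* was listed at 0 and *Trbc2* was at 0.09 TPM.

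*Cxcl13*, a B cell chemoattractant of lymphoid stroma, was at 1.48, 3.60 and 0.43 TPM in HFD mice and at 39.6, 75.9 and 5.37 TPM in LFD mice. Its log2 fold change was -4.32 ± 1.17 (edgeR adjusted p = 0.27), and DESeq2 called it lower (DESeq2 adjusted p = 0.000833). Of the same list, *Ccl19* had a log2 fold change of -1.33 ± 0.76 and *Ccl21a* one of 1.28 ± 1.20. *Cd209a*, of dendritic cells, was below every LFD mouse in every HFD mouse, at -1.53 ± 0.49 (edgeR adjusted p = 0.355). The log2 fold change was above 0 in 6 of the 7 dendritic cell markers, up to 1.37 ± 0.68 for *Itgax*.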
